A study of Mus musculus with 6 samples.

Results

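The IL-1 family and inflammasome genes examined here are the cytokine genes Il1a, Il1b and Il18, the antagonist genes Il1rn and Il1r2, and Nlrp3, Aim2, Pycard and Casp1 of the inflammasome. They were chosen by symbol in the annotation of the array, and all 9 had a probe set, out of 12394 genes measured. Each gene was read from its brightest probe set by mean over the 6 arrays, and the 3 further probe sets (for Il1rn and Pycard) served as a check.

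RNA of dendritic cells, which take up antigen and present it to T cells, was hybridised to Affymetrix 3′ arrays. The cells were CD11c+ conventional dendritic cells sorted from spleen (3 arrays) and from lymph node (3 arrays) of BALB/c mice, an inbred strain. No treatment, genotype or age is named for either group, and nothing in the labels says whether arrays came from separate mice or pools, so p-values measure only the spread between arrays, which may be technical. With 3 arrays a group, precision is limited throughout.

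Cytokines of the IL-1 family are made as precursors or stored in the cell, and signal through receptors that share the adaptor MyD88 and end in NF-kB activation. IL-1β and IL-18 must be cut before they act, chiefly by caspase-1. Caspase-1 is switched on in the inflammasome, a complex in which a sensor such as NLRP3 (cell stress and membrane damage) or AIM2 (DNA in the cytosol) recruits the adaptor ASC, encoded by Pycard. The receptor antagonist encoded by Il1rn occupies the IL-1 receptor without signalling, and the decoy receptor encoded by Il1r2 binds IL-1 without passing on a signal. In dendritic cells IL-1β and IL-18 help to activate T cells and NK cells, and Il1b and Nlrp3 are both genes that NF-kB signalling induces.

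The defining genes of the sorted cells were present in both groups. Itgax, which encodes CD11c, had an intensity of 856.1 to 1151.7 in the arrays labelled spleen and 1845.0 to 2006.3 in the arrays labelled lymph node. Ccr7, the receptor that brings migrating dendritic cells to lymph nodes, had 827.2 to 1757.5 in arrays labelled spleen and 383.9 to 556.0 in arrays labelled lymph node, the opposite of what the labels would give, so groups are named here as labelled. Whether the labels of the groups were exchanged cannot be told from these files, and if they were, the sign of every difference given here would turn round. Over all genes 12.7% were lower and 11.8% higher in arrays labelled spleen without overlap. Of 7 conventional dendritic cell markers 6, Itgax among them, were lower in arrays labelled spleen without overlap, and 1, Ccr7, was higher. Their sum was 12725.8 to 18314.8 in arrays labelled spleen and 20274.2 to 22140.7 in arrays labelled lymph node. Summed over 8 of 9 listed genes, plasmacytoid dendritic cell markers had 1475.3 to 4783.3 in arrays labelled spleen and 532.2 to 1129.6 in arrays labelled lymph node. T cell markers (7 of 8) had 1098.4 to 2543.4 and neutrophil markers (11 of 12) 121.9 to 202.2 in arrays labelled spleen, against 183.9 to 591.7 and 242.2 to 811.6 in arrays labelled lymph node. Most of the T cell sum came from Il7r, with 810.4 to 1912.4 in arrays labelled spleen and 117.6 to 353.9 in arrays labelled lymph node, while the T cell receptor complex genes Cd3d, Cd3e and Cd3g overlapped between the groups (Cd3e 14.5 to 136.8 and 14.5 to 41.2 in the same order). All 7 had a positive difference, and 4 (Il7r, Cd28, Thy1 and Trat1) were higher in arrays labelled spleen without overlap. Il7r and Cd28 passed in limma (adjusted p = 0.0232 and 0.0401), while 2.03% of all genes passed as higher. Cd28 had 108.2 to 312.9 in arrays labelled spleen and 5.0 to 47.8 in arrays labelled lymph node. The bacterial poly-A control probe sets, a technical measure, averaged 7.71 to 8.29 on the log2 scale in arrays labelled spleen and 6.82 to 7.31 in arrays labelled lymph node. The part of these in the results below was not tested.

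By their brightest probe sets, 0 of the 9 genes were higher and 0 lower in arrays labelled spleen at a limma adjusted p under 0.05. Over all genes 3.4% passed, 2.03% higher and 1.37% lower in arrays labelled spleen. At an unadjusted p under 0.05, 2 of the 9 (Il1b and Pycard) were past it, while 19% of all genes were. In 8 of the 9 the difference was negative and in 1, Il1rn, positive, while it was negative in 6280 of all 12394 genes. For Il1a and Il1r2 the sign turned round in 3 alternatives each. The median log2 difference of the 9 was -0.33, beside -0.0053 over all genes. The groups did not overlap for 3 genes, Il1b, Aim2 and Pycard, all lower in arrays labelled spleen, as was so for 12.7% of all genes. Another 11.8% of all genes, and 0 of the 9, were higher there without overlap.

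**Figure D1:**
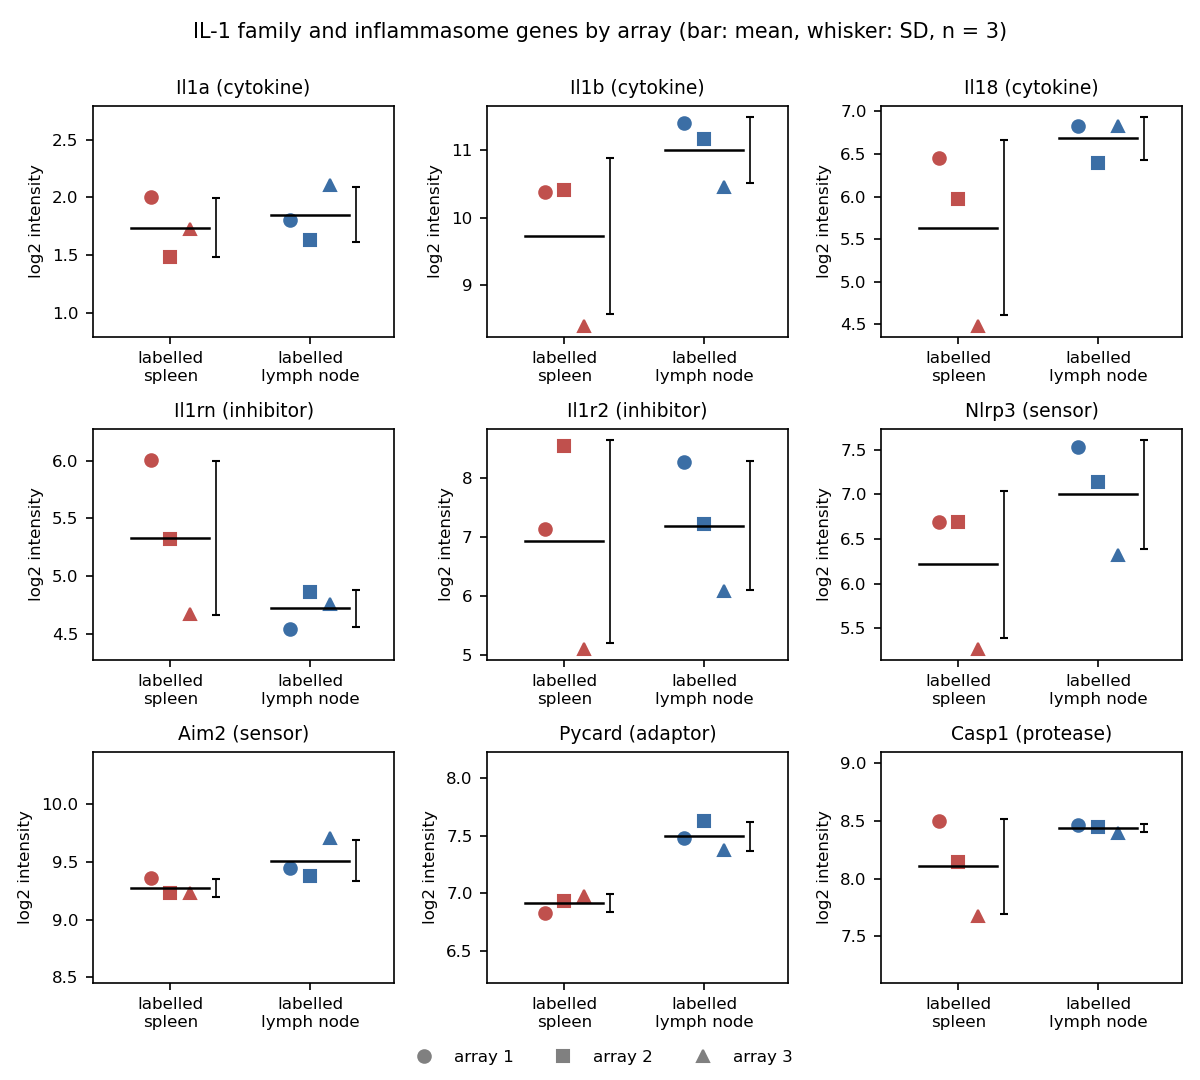
Log2 intensity (vertical axis) of the 9 genes in each array, arrays labelled spleen left and arrays labelled lymph node right in each panel. Points are arrays, with symbol shapes for the array numbers 1 to 3, bars are group means and whiskers are SDs (n = 3). Il1b, Il18, Il1r2 and Nlrp3 scatter widely, with spleen array 3 lowest, while the groups for Pycard lie apart with little scatter.

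Among the cytokines, Il1b was read at 1333.4, 1358.9 and 336.9 in arrays 1 to 3 labelled spleen, and at 2702.5, 2312.1 and 1411.3 in arrays 1 to 3 labelled lymph node. All arrays labelled spleen lay under all arrays labelled lymph node, narrowly so between 1358.9 and 1411.3. The log2 mean was 9.73 ± 1.15 in arrays labelled spleen and 11.01 ± 0.49 in arrays labelled lymph node (SD, n = 3 each), a log2 difference of -1.28 ± 0.54 (SE; 95% interval -2.53 to -0.033) that did not pass in limma (adjusted p = 0.249). Without spleen array 3 the difference was -0.62 (limma adjusted p = 0.264), and without both arrays numbered 3 it was -0.89 (adjusted p = 0.0644). In sorted populations measured in bulk, fewer cells of a type and less RNA per cell cannot be told apart.

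Il18, whose product drives interferon-γ in T and NK cells, had 87.7, 62.7 and 22.3 in arrays labelled spleen and 114.1, 84.1 and 113.8 in arrays labelled lymph node. The groups overlapped at spleen array 1, and spleen array 3 was by far the lowest. Its log2 difference was -1.05 ± 0.46 (SE; 95% interval -2.12 to 0.021; limma adjusted p = 0.273), and -0.47 without spleen array 3. Il1a, which encodes IL-1α, was read at 2.8 to 4.0 in arrays labelled spleen and 3.1 to 4.3 in arrays labelled lymph node, close to the lowest value of the whole table, 2.1. At that level no difference in Il1a was detectable (-0.11 ± 0.20 SE, limma adjusted p = 0.831).

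The 300 bases around the annotated starts of Il1b, Nlrp3 and Il1rn are shown because Il1b and Nlrp3 were both lowest in array 3 of each group and because Il1rn, the gene with an opposite sign, starts at several places. Il1r2 and Casp1 were lowest there too, but their windows are not shown, so that pattern alone does not single out the windows shown. Sequences are from RefSeq on GRCm38.p6, 250 bases before and 50 after the start, which the table holds for all 9 genes. The deposited values themselves name no build. Capitals mark matches, on either strand, to GGGNNTTCC (an NF-kB type site), TGANTCA (AP-1), TTGCNNAA (C/EBP), GAGGAA (the PU.1 core) or TATAAA (the TATA box), and no matches overlapped in the windows shown. The Il1b window lies at chr2:129371090-129371389, minus strand. The Nlrp3 windows lie at chr11:59541319-59541618, plus strand, and at chr11:59542436-59542735, plus strand. Of 3 Il1rn windows the first lies at chr2:24336610-24336909, plus strand, and the last, which largely overlaps the second, at chr2:24345121-24345420, plus strand.
Il1b: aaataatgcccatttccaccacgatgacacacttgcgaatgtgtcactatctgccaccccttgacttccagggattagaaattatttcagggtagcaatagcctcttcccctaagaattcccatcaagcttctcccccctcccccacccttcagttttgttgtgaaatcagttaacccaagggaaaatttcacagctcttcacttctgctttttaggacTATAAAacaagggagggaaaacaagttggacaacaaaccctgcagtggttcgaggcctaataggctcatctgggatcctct
Nlrp3, first start: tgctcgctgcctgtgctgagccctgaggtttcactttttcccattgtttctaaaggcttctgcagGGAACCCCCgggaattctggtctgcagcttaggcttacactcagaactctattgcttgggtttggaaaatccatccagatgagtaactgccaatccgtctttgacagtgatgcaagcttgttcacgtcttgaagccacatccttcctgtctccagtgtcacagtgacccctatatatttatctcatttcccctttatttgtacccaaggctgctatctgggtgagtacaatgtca
Nlrp3, second start: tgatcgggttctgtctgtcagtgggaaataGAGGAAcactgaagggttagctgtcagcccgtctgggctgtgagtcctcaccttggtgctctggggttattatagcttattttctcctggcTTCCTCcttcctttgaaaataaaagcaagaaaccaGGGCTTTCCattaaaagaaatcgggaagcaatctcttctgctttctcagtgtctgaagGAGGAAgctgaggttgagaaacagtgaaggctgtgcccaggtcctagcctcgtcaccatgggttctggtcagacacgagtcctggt
Il1rn, first start: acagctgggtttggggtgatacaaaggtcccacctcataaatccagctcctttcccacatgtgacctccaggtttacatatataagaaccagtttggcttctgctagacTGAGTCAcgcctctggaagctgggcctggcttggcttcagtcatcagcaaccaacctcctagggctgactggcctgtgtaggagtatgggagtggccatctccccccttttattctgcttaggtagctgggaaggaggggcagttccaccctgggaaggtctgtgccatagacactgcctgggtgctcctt
Il1rn, last start: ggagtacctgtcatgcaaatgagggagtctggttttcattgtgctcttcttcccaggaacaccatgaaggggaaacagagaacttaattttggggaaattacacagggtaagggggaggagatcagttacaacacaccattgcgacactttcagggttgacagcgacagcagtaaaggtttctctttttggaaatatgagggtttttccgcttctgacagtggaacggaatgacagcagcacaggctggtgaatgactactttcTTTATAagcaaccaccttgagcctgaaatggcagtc

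The Il1b window held a TATA box at -31 to -26 from the start, and no other of these motifs. The first Nlrp3 window held an NF-kB type match, GGAACCCCC on the opposite strand, at -185 to -177. The second held another, GGGCTTTCC, at -94 to -86, and 3 PU.1 cores. The first Il1rn window held an AP-1 match, TGAGTCA, at -141 to -135. The last Il1rn window held a TATA box match on the opposite strand after the start, at 14 to 19. Among the windows not shown, that of Il1r2 held 0 matches to these motifs, and that of Casp1 held 1, a PU.1 core at -108 to -103. Of 32841 windows of this length in the table, 5.8% held the NF-kB type motif, 7.8% AP-1, 10.8% C/EBP, 28.3% the PU.1 core and 13.6% the TATA box. These matches describe letters in the windows and are not binding sites shown by these data.

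The inhibitor gene Il1rn was the exception in sign, and its probe sets differed in what they showed. The brightest (1451798_at) had 64.3, 40.0 and 25.4 in arrays labelled spleen and 23.3, 29.0 and 27.1 in arrays labelled lymph node, so the groups overlapped at spleen array 3. Its log2 difference was 0.61 ± 0.32 (SE; 95% interval -0.13 to 1.35; limma adjusted p = 0.359). It was 0.27 without spleen array 1 (adjusted p = 0.660) and 0.94 without spleen array 3 (adjusted p = 0.0835). A further probe set (1423017_a_at) had 57.9, 57.9 and 36.9 in arrays labelled spleen and 17.3, 19.8 and 15.2 in arrays labelled lymph node, with no overlap. By that probe set Il1rn was 2.87-fold higher in arrays labelled spleen (log2 difference 1.52 ± 0.23 SE, 95% interval 1.00 to 2.05), and it passed when limma was fitted over all 20393 named probe sets (adjusted p = 0.0185). The remaining one (1425663_at) scattered, with 11.0, 64.4 and 30.5 in arrays labelled spleen and 25.5, 10.2 and 12.0 in arrays labelled lymph node (0.93 ± 0.62 SE, adjusted p = 0.488). All 3 probe sets had a positive sign, and their mean differed by 1.02 (limma adjusted p = 0.0562). Which of the Il1rn transcripts each probe set reads was not analysed here.

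**Figure D2:**
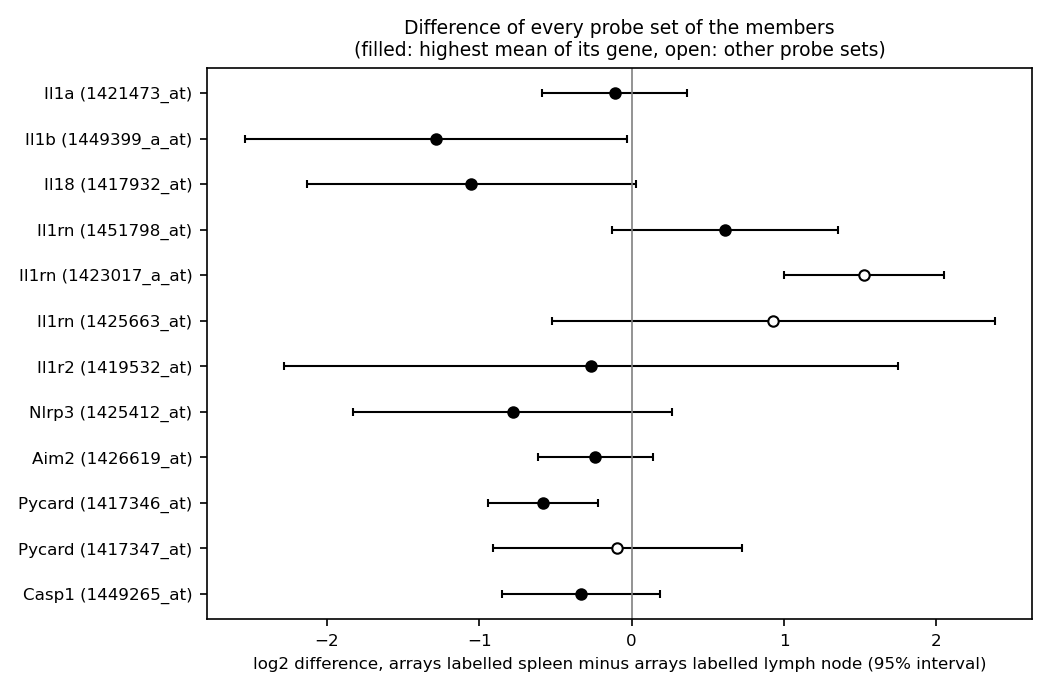
Log2 difference of arrays labelled spleen minus arrays labelled lymph node (horizontal axis, 95% intervals of limma over all named probe sets) for the 12 probe sets of the 9 genes. Filled points are the brightest probe set of each gene and open points the others. The interval of the Il1rn probe set 1423017_a_at, 1.00 to 2.05, lies furthest above 0, and the second Pycard probe set sits close to 0.

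Il1r2, the decoy receptor gene, was the most variable of the 9. It had 141.2, 373.6 and 34.1 in arrays labelled spleen and 312.0, 148.8 and 67.9 in arrays labelled lymph node. The highest and the lowest array were both labelled spleen, an 11.0-fold range. The log2 difference of -0.27 ± 0.87 (SE) had an interval from -2.28 to 1.74 (limma adjusted p = 0.911), so neither direction was resolved. Il1r2 is also known from neutrophils. The neutrophil marker sum was 202.2, 125.9 and 121.9 in arrays 1 to 3 labelled spleen and 242.2, 739.4 and 811.6 in arrays 1 to 3 labelled lymph node. Its part in the Il1r2 values was not tested.

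Of the sensors, Nlrp3 had 103.6, 103.6 and 38.5 in arrays labelled spleen and 184.8, 141.3 and 80.2 in arrays labelled lymph node. Only lymph node array 3 lay within the range of the arrays labelled spleen. The log2 difference was -0.78 ± 0.45 (SE; 95% interval -1.82 to 0.26; limma adjusted p = 0.410), and -0.30 without spleen array 3. Aim2 had 658.4, 601.2 and 599.1 in arrays labelled spleen and 698.7, 665.5 and 837.3 in arrays labelled lymph node. The groups did not overlap, but they met between 658.4 and 665.5, and the difference of -0.24 ± 0.16 (SE; 95% interval -0.61 to 0.14) did not pass (limma adjusted p = 0.492).

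Pycard, the adaptor gene, came closest to the threshold. It had 113.4, 121.9 and 126.0 in arrays labelled spleen and 178.3, 197.0 and 166.1 in arrays labelled lymph node, a gap wider than the range within either group. The log2 mean was 6.91 ± 0.08 in arrays labelled spleen and 7.49 ± 0.12 in arrays labelled lymph node (SD, n = 3 each), a difference of -0.58 ± 0.15 (SE; 95% interval -0.94 to -0.23; limma adjusted p = 0.0858). With 16 added to each value before log2 it passed (difference -0.52, adjusted p = 0.0439). With 1 array left out it did not pass (differences from -0.64 to -0.52, limma adjusted p from 0.0908 to 0.310). Its dimmer probe set (1417347_at) had 34.6, 59.0 and 44.2 in arrays labelled spleen and 53.5, 28.8 and 71.3 in arrays labelled lymph node, which overlapped (-0.095 ± 0.35 SE). Only the brighter of the Pycard probe sets separated the groups, and their mean differed by -0.34 (limma adjusted p = 0.410).

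Casp1, the protease gene, had 361.4, 283.1 and 205.0 in arrays labelled spleen and 354.2, 349.7 and 337.1 in arrays labelled lymph node. The arrays labelled lymph node were within 1.05-fold of each other, and spleen array 1 was above them all. The log2 difference of -0.33 ± 0.22 (SE; 95% interval -0.85 to 0.18; limma adjusted p = 0.484) was -0.12 without spleen array 3. Taken as folds, the interval for Casp1 runs from 0.557 to 1.14.

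The 9 genes differed in how much they varied between arrays of the same group. The pooled within-group SD on the log2 scale was 1.45 for Il1r2, 0.89 for Il1b, 0.75 for Il18 and 0.73 for Nlrp3, which are percentiles 99.8, 98.3, 96.8 and 96.5 of all genes, whose median SD was 0.25. Il1rn (0.49), Casp1 (0.29) and Il1a (0.25) lay lower. Aim2, with 0.13, and Pycard, with 0.10, were at percentiles 13.5 and 6.25. The variable genes were the cytokine genes Il1b and Il18, the decoy receptor gene and the sensor gene Nlrp3, and the steady ones Aim2 and Pycard. The cytokine gene Il1a, near the bottom of the scale, was at percentile 49.3.

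Much of that spread lay in the arrays numbered 3, for Il18 only in that labelled spleen. On the log2 scale Il1b in array 3 differed from the mean of arrays 1 and 2 by -1.998 in the arrays labelled spleen and by -0.82 in the arrays labelled lymph node. For Nlrp3 these differences were -1.43 and -1.01, and for Il1r2 -2.75 and -1.67, in the same order of groups. For Il18 they were -1.73 and 0.22. Casp1 was also lowest in array 3 of both groups (-0.64 and -0.062), narrowly so in the arrays labelled lymph node. With Casp1, 4 of the 9 genes were lowest in array 3 of both groups, beside 12.7% of all genes. The pattern was looked for after the values were seen, and the shared number stands for no link that the labels give. In array 3 the plasmacytoid dendritic cell marker sum was the highest of its group too, at 4783.3 in arrays labelled spleen, where the others had 1475.3 and 1828.6, and at 1129.6 in arrays labelled lymph node, where the others had 532.2 and 549.7. In lymph node array 3 the neutrophil, monocyte (1410.6), macrophage, B cell, T cell (591.7) and NK cell (757.0) sums were the highest of their group as well. The conventional dendritic cell sum was the lowest there, at 20274.2. None of these other sums was the highest of its group in spleen array 3. The part of these sums in the low values of array 3 was not tested.

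The genes with profiles most like Il1b over the 6 arrays were Tmem51, Gpr34, Ier3, Egr1 and Rhob. Likeness was the root mean square difference between log2 profiles centred on their means, which was 0.19 for Tmem51 and 0.28 for Rhob, while Il1b itself varied by 0.97 about its mean. Egr1, an immediate early transcription factor, had 1602.3, 2115.3 and 602.2 in arrays labelled spleen and 4307.1, 3347.2 and 3041.0 in arrays labelled lymph node. Ier3, an immediate early gene that NF-kB induces, had 242.1, 210.8 and 75.5 in arrays labelled spleen and 713.4, 522.3 and 291.8 in arrays labelled lymph node. Rhob, a small GTPase gene also known as an immediate early gene, and Gpr34, a lysophospholipid receptor gene, likewise had their lowest value in spleen array 3 (306.6 and 17.8). None of the 5 passed in limma (adjusted p from 0.113 to 0.234). They were chosen by likeness to Il1b over these same 6 arrays, so their low spleen array 3 follows from the choice. The profiles most like Pycard were those of Mad1l1, Fundc1, Dhx38, Myl12b and Tug1, with root mean square differences of 0.045 to 0.067.

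**Figure D3:**
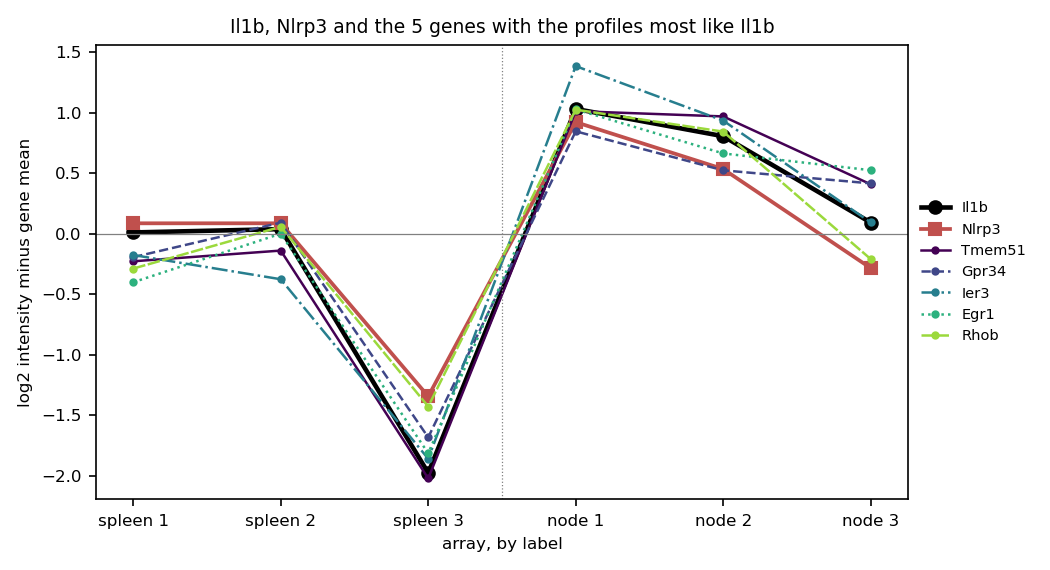
Log2 intensity minus the gene's mean (vertical axis) over the 6 arrays, arrays labelled spleen left of the dotted line and arrays labelled lymph node ("node") right of it, for Il1b, Nlrp3 and the 5 genes most like Il1b. Lines join values of a gene and stand for no order of the arrays. All 7 genes are lowest in spleen array 3 and highest in lymph node array 1, which for the 5 follows from their choice by likeness to Il1b.

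The other genes of the pathway were read from lists of 50 symbols, of which 39 had a named probe set. In limma 1 of the 39 was lower and 0 higher in arrays labelled spleen, beside 1.37% lower and 2.03% higher over all genes, and their median log2 difference was 0.047. That gene was Mefv, which encodes pyrin, the inflammasome sensor altered in familial Mediterranean fever. Mefv had 64.0, 99.7 and 48.8 in arrays labelled spleen and 240.3, 257.1 and 290.7 in arrays labelled lymph node, well apart. It fell to 6.08 ± 0.52 in arrays labelled spleen, against 8.03 ± 0.14 in arrays labelled lymph node (log2 mean, SD, n = 3 each), a difference of -1.95 ± 0.26 (SE; limma adjusted p = 0.0126). The call on Mefv was lost without spleen array 1 (adjusted p = 0.0559), lymph node array 1 (0.0678) or lymph node array 2 (0.0756), with differences of -1.91, -2.01 and -1.96. Mefv is best known from neutrophils and monocytes. S100a9, a neutrophil granule gene, had 15.6 to 72.3 in arrays labelled spleen and 106.2 to 587.6 in arrays labelled lymph node, and S100a8 6.0 to 13.3 and 20.0 to 109.1 in the same order. Csf3r, the receptor gene for the granulocyte growth factor, overlapped, with 24.4 to 34.7 in arrays labelled spleen and 29.2 to 53.7 in arrays labelled lymph node. Of 11 measured neutrophil markers 9 had a negative difference, 4 (S100a8, S100a9, Camp and Ngp) were lower in arrays labelled spleen without overlap, and 1, Camp, passed (limma adjusted p = 0.0425). Over all genes 12.7% were lower there without overlap, and 1.37% passed as lower. Camp, a granule gene, had 7.1 to 9.1 in arrays labelled spleen and 15.1 to 31.8 in arrays labelled lymph node, and Ngp, another, 7.3 to 11.7 and 13.3 to 22.2 in the same order. The granule genes Elane and Mpo overlapped near the bottom of the scale, at 4.6 to 7.0 in arrays labelled spleen and 4.0 to 7.3 in arrays labelled lymph node. Macrophage markers summed over 10 genes had 458.4 to 580.5 in arrays labelled spleen and 801.9 to 1055.5 in arrays labelled lymph node, and monocyte markers (6 of 8) had 801.1 to 1099.1 and 563.4 to 1410.6 in the same order. The part of these cells in the Mefv difference was not tested. Naip6, a sensor of bacterial proteins with near-identical paralogs that its probe set may also read, differed by 0.22 ± 0.22 (SE, limma adjusted p = 0.662).

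Of 6 measured receptor genes 0 passed, although 5 had a positive sign and their median difference was 0.54. Il18r1, the ligand-binding chain of the IL-18 receptor, had 475.7, 171.5 and 144.8 in arrays labelled spleen and 22.1, 33.6 and 112.0 in arrays labelled lymph node. The groups stood apart, with lymph node array 3 closest, and the difference was 2.38 ± 0.65 (SE; 95% interval 0.87 to 3.89; limma adjusted p = 0.0951). Without lymph node array 3 Il18r1 passed, at 3.06 (adjusted p = 0.0394). Over all fits with 1 array left out its difference lay between 1.85 and 3.06, and its limma adjusted p between 0.0394 and 0.296. This receptor is known from T and NK cells, and the T cell marker sum was 2543.4, 1098.4 and 2380.0 in arrays labelled spleen and 249.4, 183.9 and 591.7 in arrays labelled lymph node, with lymph node array 3 again the highest of its group. In arrays labelled spleen Il18r1 was lowest in array 3, and the T cell sum, most of which came from Il7r, in array 2. Single markers were mixed: Cd3g, Thy1, Trat1, Eomes, Gzma and Klra8 were lowest in spleen array 3. Cd3d, Cd3e, Cd28, Il7r, Ncr1 and Klrk1 were lowest in spleen array 2, and Prf1 in spleen array 1. NK cell markers (6 of 7) had 1419.3, 383.6 and 410.9 in arrays 1 to 3 labelled spleen and 323.2, 302.8 and 757.0 in arrays 1 to 3 labelled lymph node. The part of T and NK cells was looked at after the values were seen. What these cells contribute to the Il18r1 values was not tested. Il1r1, the signalling receptor of IL-1, had 16.4 to 26.6 in arrays labelled spleen and 11.9 to 23.0 in arrays labelled lymph node (0.54 ± 0.30 SE, limma adjusted p = 0.395), and passed without both arrays numbered 3 (1.05, adjusted p = 0.0407). With 1 array left out Il1r1 did not pass (limma adjusted p from 0.168 to 0.738). Its partner chain Il1rap differed by 0.55 ± 0.19 (SE, adjusted p = 0.172), with groups that did not overlap.

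In receptor signalling 0 of 10 measured genes passed, with a median difference of -0.091. Myd88, the adaptor of IL-1 and Toll-like receptors, had 49.5, 81.4 and 80.9 in arrays labelled spleen and 111.2, 186.8 and 100.2 in arrays labelled lymph node, without overlap (-0.89 ± 0.30 SE, limma adjusted p = 0.157). Traf6, the ubiquitin ligase downstream of it, had a difference of opposite sign, 0.52 ± 0.27 (SE, adjusted p = 0.356). Further ligands and antagonists of the family gave 0 of 6 past the threshold and a median of 0.044. Il1f10, the gene of IL-38, had 10.5 to 14.8 in arrays labelled spleen and 9.6 to 11.3 in arrays labelled lymph node, and Il1f9, the gene of IL-36γ, 7.1 to 8.7 and 7.9 to 11.3 in the same order, all low on this scale.

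Among inflammasome regulators and executioners 0 of 12 passed, with a median of 0.11. Txnip, a thioredoxin-binding protein that has been described as an NLRP3 partner, had 255.1, 274.4 and 406.8 in arrays labelled spleen and 575.3, 700.5 and 559.5 in arrays labelled lymph node. The groups lay clearly apart, and the difference of -0.995 ± 0.22 (SE; 95% interval -1.50 to -0.49) missed the threshold narrowly (limma adjusted p = 0.0536). Txnip passed without spleen array 3 (-1.20, adjusted p = 0.0220). Over all fits with 1 array left out its limma adjusted p lay between 0.0220 and 0.215. P2rx7, the ATP-gated channel whose opening triggers NLRP3, had 44.6 to 51.4 in arrays labelled spleen and 29.4 to 36.2 in arrays labelled lymph node, also without overlap (0.52 ± 0.16 SE, adjusted p = 0.131).

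**Figure D4:**
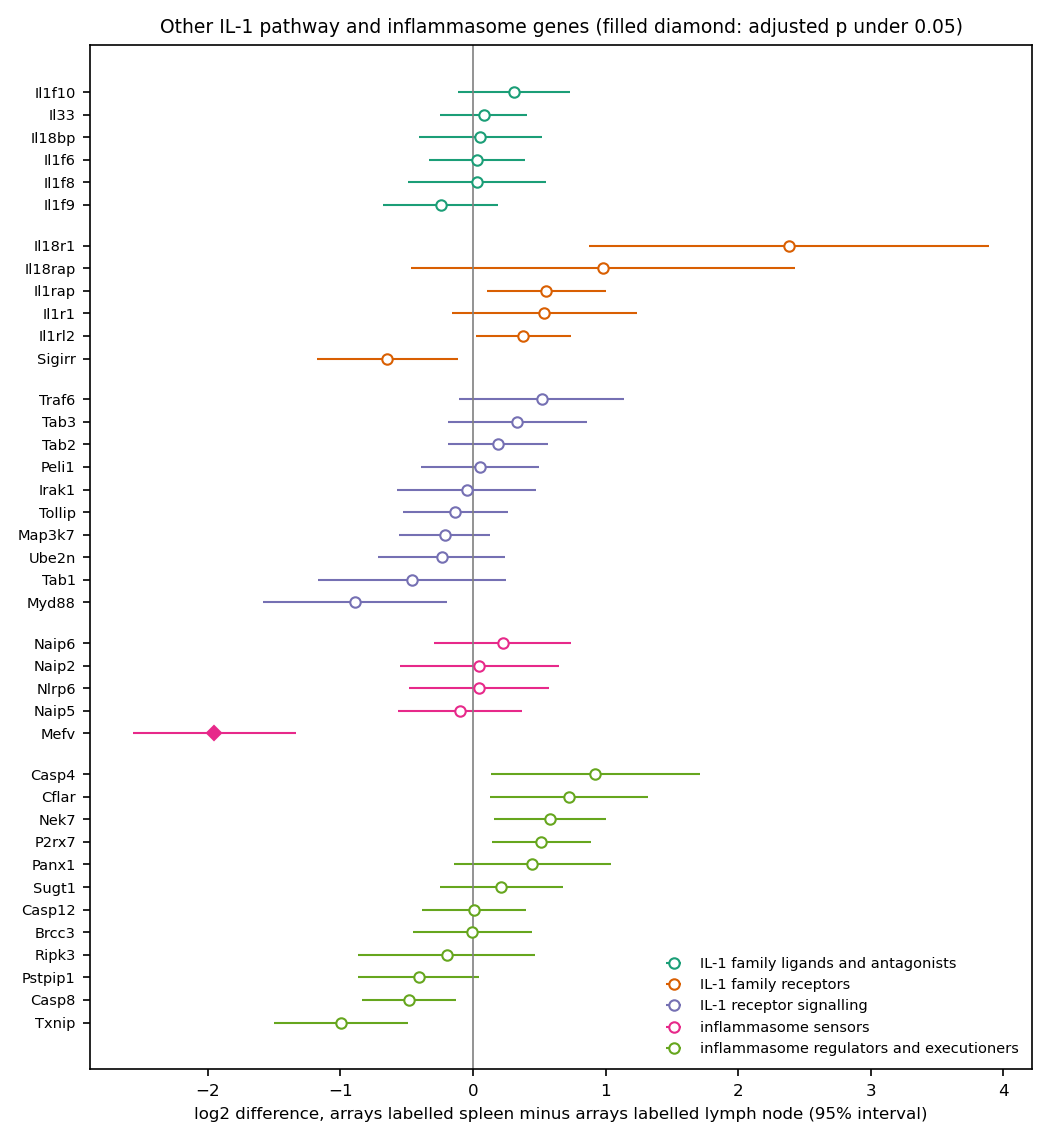
Log2 difference of arrays labelled spleen minus arrays labelled lymph node (horizontal axis, 95% intervals of limma) for the 39 other genes of the pathway, grouped by list. The filled diamond marks the gene past an adjusted p of 0.05, Mefv at -1.95, and open circles mark genes that did not pass. Il18r1 at 2.38 has the largest positive difference and one of the widest intervals.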

How the data were processed

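The labels' protocols describe TRIzol extraction followed by a clean-up column, and amplification of 2 ng into biotinylated cDNA. The deposited intensity values are probe set summaries on a linear scale. Array medians were 39.4 to 41.3. The submitters' processing notes name RMA and limma without versions, and whether a floor or scaling followed is unknown. Of 22690 probe sets, 20393 had 1 gene symbol, 691 several and 1606 none.

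Differences in log2 intensity between the groups of the titles, spleen minus lymph node, were fitted in limma 3.58.1 (R 4.3.3; lmFit, eBayes), two-sided, with Benjamini-Hochberg adjustment over 12394 genes and a threshold of 0.05. The fit was tested on simulated data. The members and lists were chosen with earlier results of these data known. Named were all members, pathway genes past the threshold, the 2 with the smallest p of each list, 5 fixed genes (1 of which, Gsdmd, had no named probe set), 5 marker genes, and the 5 profiles most like Il1b and like the member with the smallest p. Elane, Mpo, Camp, Ngp and the T cell and NK cell markers were named after their values were seen. Alternatives were a replicate block, array weights, eBayes with trend and robust, quantile normalization applied again, centring on array medians, keeping only genes above the median level, the mean of a gene's probe sets, each further probe set, 16 added before log2, each array left out and, added after seeing the data, both arrays numbered 3 left out.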

Additional observations from a re-analysis of the deposited data

How the results depend on the processing

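The count of genes past the threshold, 421, was 764 with array weights and lay between 47 and 475 with 1 array left out (47 without lymph node array 2, 56 without lymph node array 1, 130 without spleen array 1). The count of members stayed at 0 in every alternative but 1, with 16 added before log2, where it was 1 (Pycard); the Il1rn probe set that passed alone stands outside this count. The count of other pathway genes, 1, was 2 with the filter at the median level and 2 with eBayes with trend and robust, 3 with array weights, 5 without both arrays numbered 3, and 0 to 3 with 1 array left out. The genes added were Txnip, Il18r1, Casp4, Cflar or Il1r1. The cause was not tested. With 1 array left out the difference of Il1a lay between -0.24 and 0.016, positive without spleen array 2 (0.013) or lymph node array 3 (0.016), and that of Il1r2 between -1.08 and 0.65, positive without spleen array 3 (0.65) or lymph node array 1 (0.27). Without both arrays numbered 3 they were 0.023 and 0.092. For the other 7 members the sign was kept in all alternatives run. With the replicate block 518 genes, 0 members and 1 other pathway gene passed, and Il1b and Nlrp3 had adjusted p of 0.0644 and 0.0843 in limma. The deviations of same-numbered arrays correlated by 0.022, 0.24 and 0.16. Spleen arrays 2 and 3 correlated best with the lymph node array of their own number, and spleen array 1 with lymph node array 3 (0.085). These values do not settle whether the numbers pair the arrays. The labels give no such link, and the main fit took the arrays as unpaired. No detection calls were used, which leaves genes near the bottom of the scale, Il1a among them, without a measured level.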
